A study of Mus musculus with 2 samples.

Results

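The genes described here are 5 mouse stefin A genes, Stfa1, Stfa2, Stfa3, Stfa2l1 and BC100530, taken by symbol out of 27998 gene identifiers in both count matrices. They were picked in earlier work on these matrices, where their levels differed between the libraries, so the difference between libraries is a description and carries no test. Stefin A proteins, also called cystatin A, are small inhibitors of the cystatin superfamily that sit in the cytosol and block papain-like cysteine proteases such as cathepsins B, H, L and S by filling the active-site cleft. Mice carry a cluster of related copies, some of them near-identical, in place of the single human gene CSTA. In mouse bone marrow, stefin A transcripts are known from the neutrophil lineage, and the single-copy relative Cstb (stefin B) is made by most cell types.

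The Jumonji library came from mouse MLL-AF9 Cas9 leukaemia cells that, per the series title, carry a mutation in the Jumonji domain of JMJD1C, a histone demethylase. The Renilla library came from the same kind of cells, labelled only with the word Renilla, the name of a luciferase commonly targeted as a control in guide RNA experiments. MLL-AF9 is a leukaemia fusion protein, Cas9 is the nuclease that guide RNAs direct, and all cells of both libraries carry both and grew in interleukin-3 at 10 ng/ml. There was 1 library of each kind, so every interval below covers counting error only and no value has a replicate check. The labels do not say how many clones, guides or mice the cells came from.

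After filtering, 575 Jumonji and 608 Renilla cells remained, with a median of 22123 and 23528 UMIs (unique molecular identifiers, tags that mark single RNA molecules) per cell. The libraries shared 0 cell barcodes. Jmjd1c was at 112 CPM (UMIs per 1000000 UMIs of the library's kept cells) in the Jumonji library, against 140 CPM in the Renilla library. A 3′ tag outside the edited part does not check the label. Of markers of the myeloid lineage, primary granule genes summed to 2799 CPM in the Jumonji library, against 5893 CPM in the Renilla library, while erythroid markers summed to 2.19 and 3.54 CPM.

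All 5 genes lie in a 335 kb stretch of chromosome 16 (GRCm38, the build also called mm10) that holds 11 stefin A genes with a row in the matrices. From low to high coordinate the members are Stfa2l1 (chr16:36156811-36161953, plus strand), Stfa1 (chr16:36276951-36285373, plus strand), BC100530 (chr16:36359382-36367748, minus strand, Cstdc5 in RefSeq), Stfa2 (chr16:36403992-36408457, minus strand) and Stfa3 (chr16:36450537-36455392, minus strand). All are annotated in GENCODE M21 as protein coding. Between and around them lie Csta1, Gm5483 (RefSeq Cstdc4), Gm5416 (Csta3), 2010005H15Rik (Csta2), BC117090 (Cstdc6) and the pseudogene Gm4758.

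Sequence decides how far the copies can be told apart. The coding sequences of the 3 abundant copies, Stfa1, BC100530 and the neighbour Gm5483, are shown from the GENCODE M21 transcripts, with capitals at the bases that differ from Stfa1.
Stfa1: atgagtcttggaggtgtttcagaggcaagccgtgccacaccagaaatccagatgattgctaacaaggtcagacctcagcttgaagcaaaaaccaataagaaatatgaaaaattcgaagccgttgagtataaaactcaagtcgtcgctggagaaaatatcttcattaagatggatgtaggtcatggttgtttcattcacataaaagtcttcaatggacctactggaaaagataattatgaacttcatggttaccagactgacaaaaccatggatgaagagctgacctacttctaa
BC100530: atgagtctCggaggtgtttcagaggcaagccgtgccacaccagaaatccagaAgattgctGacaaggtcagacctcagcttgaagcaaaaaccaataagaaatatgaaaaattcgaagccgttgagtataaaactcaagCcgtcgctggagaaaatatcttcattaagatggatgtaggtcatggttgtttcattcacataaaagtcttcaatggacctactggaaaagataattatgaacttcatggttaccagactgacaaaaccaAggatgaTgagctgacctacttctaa
Gm5483: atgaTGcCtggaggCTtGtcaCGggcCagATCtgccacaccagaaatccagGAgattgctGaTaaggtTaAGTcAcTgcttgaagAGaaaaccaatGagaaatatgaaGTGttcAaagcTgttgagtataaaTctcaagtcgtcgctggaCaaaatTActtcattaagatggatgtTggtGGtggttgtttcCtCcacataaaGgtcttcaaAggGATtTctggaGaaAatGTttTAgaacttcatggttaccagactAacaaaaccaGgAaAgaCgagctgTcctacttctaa
BC100530 differed from Stfa1 at 6 of 294 coding bases (98.0% identity), and Gm5483 differed from Stfa1 at 57 (80.6%). Stfa2 and Stfa2l1 formed the other close pair, with 96.5% identity over 312 coding bases. The library chemistry reads the 3′ end of transcripts, so the last 300 bases matter most. There Stfa1 and BC100530 were 98.7% identical, and 41.7% of all 90-base windows of BC100530 occurred letter for letter in another stefin A transcript. That share was 18.5% for Stfa1, 21.3% for Gm5483, 3.79% for Stfa2, 3.32% for Stfa2l1 and 0 for Stfa3. BC117090 was 97.8% identical to BC100530 in its last 300 bases. Reads that fit several copies could have been dropped or split in counting, so the split between Stfa1 and BC100530 is uncertain and their sum is given too.

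The members also share promoter letters. RefSeq promoter windows (GRCm38.p6, 250 bases before to 50 bases after each start) were found for 5 of 5 members, and the longest run around the TATA-like letters TTTAAA that all 5 held was ACCTTTAAAACCC, shown in capitals within 30 bases.
Stfa1: tttcggatACCTTTAAAACCCtgagtctca
BC100530: ttacagatACCTTTAAAACCCcgagtctca
Gm5483: ttacagatACCTTTAAAACCCtgactctta
Stfa2l1: ttacagaaACCTTTAAAACCCtgagtctct
Stfa2: ttacagaaACCTTTAAAACCCtgagtctct
Stfa3: tacagataACCTTTAAAACCCcgagtctca
On GRCm38.p6 these stretches are chr16:36277107-36277136 (Stfa1, plus strand), chr16:36367561-36367590 (BC100530, minus strand), chr16:36184172-36184201 (Gm5483, plus strand), chr16:36156767-36156796 (Stfa2l1, plus strand), chr16:36408374-36408403 (Stfa2, minus strand) and chr16:36455405-36455434 (Stfa3, minus strand). The run began 32 to 36 bases before the RefSeq start in the genes shown except BC100530, where it began 12 bases before it. By the GENCODE M21 coordinates above, the stretches of Stfa1, BC100530 and Stfa2 lie inside the annotated gene, so the annotations place these starts differently. Searched on both strands, ACCTTTAAAACCC was present in 9 of 32851 RefSeq promoter windows (0.0274%), and those 9 were among the 12 windows on this locus. TTTAAA, which lies inside it, was in 13.2% of all windows. The core letters of PU.1 sites, GAGGAA, were in all 5 members' windows and in 28.3% of all windows, and TTGCNNAA, letters typical of C/EBP sites, was in 2 of 5 and in 10.8%. The runs were chosen after the promoters had been looked at, the copies share descent, and a match is neither a bound site nor a cause of the levels below.

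BC100530 and Stfa1 held nearly all stefin A UMIs of the 5 members, and both were higher in the Jumonji library. BC100530 had 5322 UMIs (415 CPM, 95% Poisson interval 404 to 427) in the Jumonji library, against 1220 UMIs (84.6 CPM, 79.9 to 89.5) in the Renilla library. Its log2 ratio, Jumonji over Renilla, was 2.30 (2.21 to 2.39), or 4.91-fold. Stfa1 had 3311 UMIs (258 CPM, 250 to 267) in the Jumonji library, against 1791 UMIs (124 CPM, 119 to 130) in the Renilla library, a log2 ratio of 1.06 (0.97 to 1.14). In library totals the order of the pair differed: BC100530 was above Stfa1 in the Jumonji library and below it in the Renilla library. The intervals did not overlap in either, but they leave out the spread between cells. Stfa1 was detected in more cells than BC100530 in both libraries, 38.4% against 33.2% in Jumonji and 26.2% against 17.1% in Renilla. In Jumonji cells with 3 to 19 UMIs of Stfa1, BC100530 and Gm5483, Stfa1 had 332 UMIs and BC100530 had 84. In the 114 Jumonji cells with 20 or more they had 2919 and 5183, so the Jumonji order rested on these richer cells.

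The other 3 members were rare. Stfa2l1 had 72 UMIs in 25 Jumonji cells, against 31 UMIs in 4 Renilla cells, and 26 of the Renilla UMIs came from 1 cell. The log2 ratio of Stfa2l1 was 1.39 (0.76 to 2.04) with all cells and 3.80 without the cell with most Stfa2l1 UMIs in each library. Stfa3 had 12 UMIs in 11 Jumonji cells, against 1 UMI in the Renilla library, a log2 ratio of 3.76 with a counting interval of 1.00 to 9.17. Stfa2 was the only member with more UMIs in the Renilla library, at 2 UMIs in the Jumonji library, against 70 in the Renilla library, a log2 ratio of -4.96 (-8.03 to -3.05). Of those 70 Renilla UMIs 67 came from a single cell.

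That cell, which was also the one with 26 Stfa2l1 UMIs, held more summed stefin A UMIs than any other Renilla cell: besides Stfa2 it had 205 BC100530, 115 Gm5483 and 1 Stfa1 UMI among 18547. It carried 171 S100a8, 210 S100a9, 160 Ngp and 163 Camp UMIs and no Mpo or Ltf UMI, and Scrublet, a doublet caller, did not mark it. Ngp and Camp encode proteins of neutrophil secondary granules, and S100a8 and S100a9 encode calprotectin, the main cytosolic protein pair of neutrophils. The Jumonji cell first in the list for Stfa2 had 1 Stfa2 UMI, with 7 Stfa2l1 and 18 BC100530 UMIs. Outside its top cell, Stfa2 had 3 UMIs in the Renilla library and was near the floor of detection.

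Summed over the 5 members, the level was 681 CPM (666 to 695) in the Jumonji library, against 216 CPM (208 to 224) in the Renilla library, a log2 ratio of 1.66 (1.60 to 1.72). The close pair Stfa1 plus BC100530 was at 674 and 209 CPM, 3.23-fold higher. Splitting reads between these copies does not change their sum, but reads dropped because they fit several copies would be missing from it. With all 11 genes of the locus the sums were 1120 and 292 CPM. At a minimum of 100 UMIs over both libraries, 3 members could be read (Stfa1, BC100530 and Stfa2l1) and all 3 had a ratio of 2 or more, Jumonji over Renilla, as did 4.65% of the 8959 genes that passed this minimum (1.48% had a ratio of 0.5 or less). Stfa2l1, just above the minimum, reached it mainly through the Jumonji library, and Stfa2 (72 UMIs in all) and Stfa3 (13) fell below it. The genes were picked for this contrast, so nothing is read from that count.

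**Figure D1:**
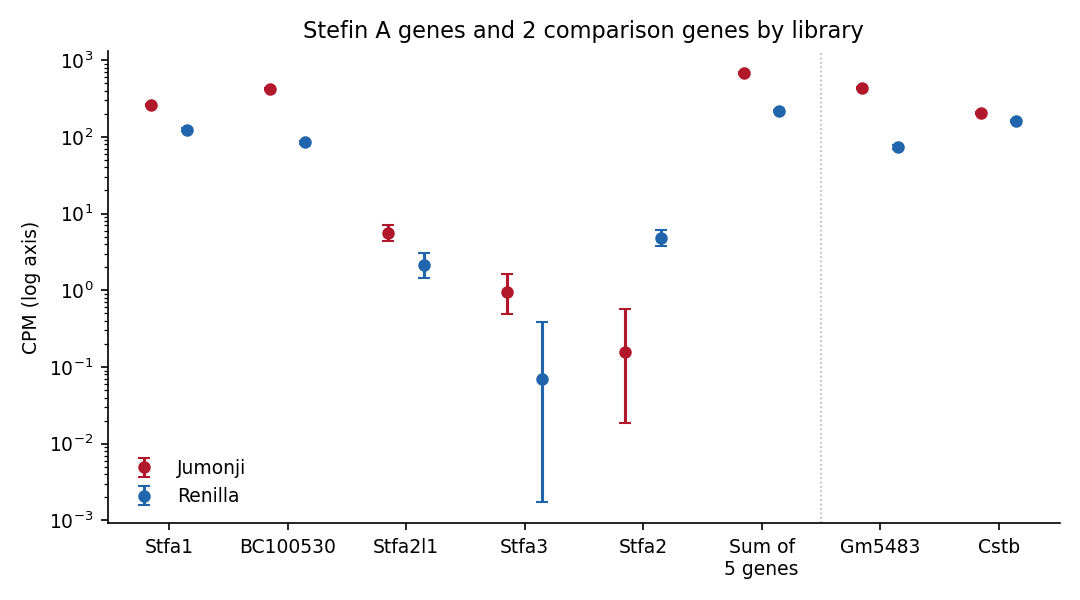
CPM (log axis) of each stefin A member, of their sum, and of Gm5483 and Cstb for comparison, in the Jumonji library (red, left of each pair) and the Renilla library (blue, right). Bars are 95% Poisson intervals of 1 library. Stfa1, BC100530, Stfa2l1, Stfa3, the sum and Gm5483 are higher in the Jumonji library, Stfa2 is lower through 1 Renilla cell, and Cstb differs least.

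Among the neighbours, Gm5483 was as abundant as the members: 5554 UMIs (434 CPM) in the Jumonji library, against 1077 UMIs (74.7 CPM) in the Renilla library, a log2 ratio of 2.54 (2.44 to 2.63). 2010005H15Rik, whose last 300 bases are 93.7% identical to those of Gm5483, had 59 and 16 UMIs. BC117090 had 9 UMIs in the Jumonji library and 1 in the Renilla library, and Gm5416 had 5 and 0. Csta1 and Gm4758 had 0 UMIs in both libraries, which allows up to 0.234 CPM in the Jumonji and 0.208 CPM in the Renilla library. The expressed copies were therefore not next to each other: Gm5483, Stfa1 and BC100530 are separated by genes with 0 to 59 UMIs. Gm15845, an antisense gene that overlaps the start of BC100530, had 1 UMI in the Jumonji library and 0 in the Renilla library.

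The single-copy relative Cstb behaved differently across cells. It had 204 CPM in the Jumonji library, against 161 CPM in the Renilla library (log2 ratio 0.34, 0.26 to 0.42), and was detected in 96.7% and 95.9% of cells. Of a list of 14 other cystatin genes, 3 had at least 50 UMIs: Cstb, Cst3 (cystatin C) at 969 and 492 CPM, and Cst7 (cystatin F, an inhibitor of cathepsins in lysosomes) at 199 and 71.0 CPM. Of these 3, 1 (Cst7) had a ratio of 2 or more, as did 5.49% of 9922 genes with at least 50 UMIs, and 0 had a ratio of 0.5 or less, as did 2.06%. A further list of 11 genes held legumain and the cysteine cathepsins, the family to which stefin targets belong. Of these 11, 7 had at least 50 UMIs, 4 of them with a ratio of 2 or more (Ctsc, Ctsb, Ctsh and Ctss) and 0 with 0.5 or less. The median log2 ratio of the 7 was 1.22, beside -0.06 over all genes. Ctss, a cathepsin of antigen-presenting myeloid cells, was at 64.5 CPM in the Jumonji library, against 4.51 CPM in the Renilla library. Ctsz and Ctso differed least, with log2 ratios of 0.28 and 0.29.

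Stefin A was present in many cells and abundant in few. At least 1 UMI of a member was found in 50.1% of Jumonji cells (45.9 to 54.3%, exact Clopper-Pearson interval), against 35.2% of Renilla cells (31.4 to 39.1%). With every cell thinned to 10000 UMIs, which left out 55 Jumonji and 29 Renilla cells of lower depth, the shares were 39.4% and 21.8%. The Jumonji cells left out were not spread evenly over the cell states described below. By member at that depth, Stfa1 was detected in 30.6% of Jumonji cells and 17.1% of Renilla cells, and BC100530 in 25% and 10.02%. Stfa2l1 was detected in 2.88% and 0.518%, Stfa3 in 0.577% and 0.173%, and Stfa2 in 0.192% and 0.345%. No cell type known to lack these genes was in either library, so the level of free RNA in the droplets was not measured, and cells with 1 or 2 UMIs cannot be told apart from cells that took up free RNA.

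Cells with 10 or more summed UMIs in 10000 made up 14.4% of Jumonji cells (75 of 520, 11.5 to 17.7%), against 5.01% of Renilla cells (29 of 579, 3.38 to 7.11%). These stefin-high cells held 90.7% of the members' UMIs in the Jumonji library and 88.0% in the Renilla library. Within them the mean was 49.3 UMIs in Jumonji cells, against 46.6 in Renilla cells, with medians of 24 and 37. Set side by side, the mean over all thinned cells was 2.96-fold higher in the Jumonji library, the share of stefin-high cells 2.88-fold higher and the mean within them 1.06-fold higher. A second random draw gave means of 48.5 and 51.2, so the level within stefin-high cells has no stable direction. The remaining cells averaged 0.852 UMIs in the Jumonji library, against 0.335 in the Renilla library.

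The unevenness was extreme in both libraries. In the unthinned counts 16 Jumonji cells and 10 Renilla cells held 50% of all UMIs of the 5 members, and the 10 richest cells held 38.6% in the Jumonji library and 52.4% in the Renilla library. The richest Jumonji cell had 562 UMIs, and the richest Renilla cell had 299. The variance of the thinned sum divided by its mean was 91.9 in Jumonji cells and 68.2 in Renilla cells, while for Cstb it was 1.71 and 1.10. Random counting gives a value of 1, which Cstb came close to in Renilla cells only. The counting intervals of the library levels above do not include this spread between cells.

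**Figure D2:**
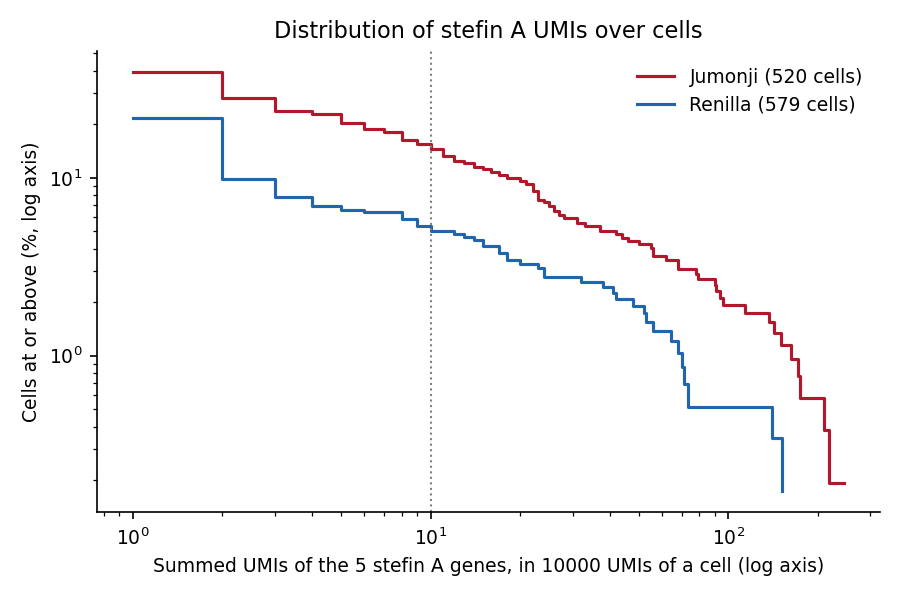
Share of cells (percent, log axis) with at least the number of summed stefin A UMIs on the x axis (log axis), each cell thinned to 10000 UMIs, for 520 Jumonji cells (red) and 579 Renilla cells (blue). The dotted line marks 10 UMIs, reached by 14.4% of Jumonji and 5.01% of Renilla cells. The Jumonji curve lies above the Renilla curve at every number of UMIs plotted.

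The copies were found in the same cells more often than independent detection would give. At 10000 UMIs per cell, Stfa1 and BC100530 were both detected in 84 Jumonji cells, where 39.8 would be if they were independent, and in 31 Renilla cells, where 9.92 would be. BC100530 and Gm5483 were both detected in 100 Jumonji cells (42.0 if independent) and 25 Renilla cells (5.61). Of 15 Jumonji cells with Stfa2l1, 14 had BC100530 and 9 had Stfa1. Cstb gives the contrast: it was found with Stfa1 in 135 Jumonji cells (136 if independent) and 85 Renilla cells (80.7). Reads placed on the wrong copy would also raise the joint counts of Stfa1 and BC100530, and their part was not tested.

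Across cells, BC100530 tracked Gm5483 more closely than it tracked its near-identical copy Stfa1. Over 520 Jumonji cells at equal depth, the Pearson r of log counts was 0.84 between BC100530 and Gm5483 and 0.52 between BC100530 and Stfa1. Over 579 Renilla cells these were 0.87 and 0.64. Cells of 1 library share its preparation, so these values describe that library.

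**Figure D3:**
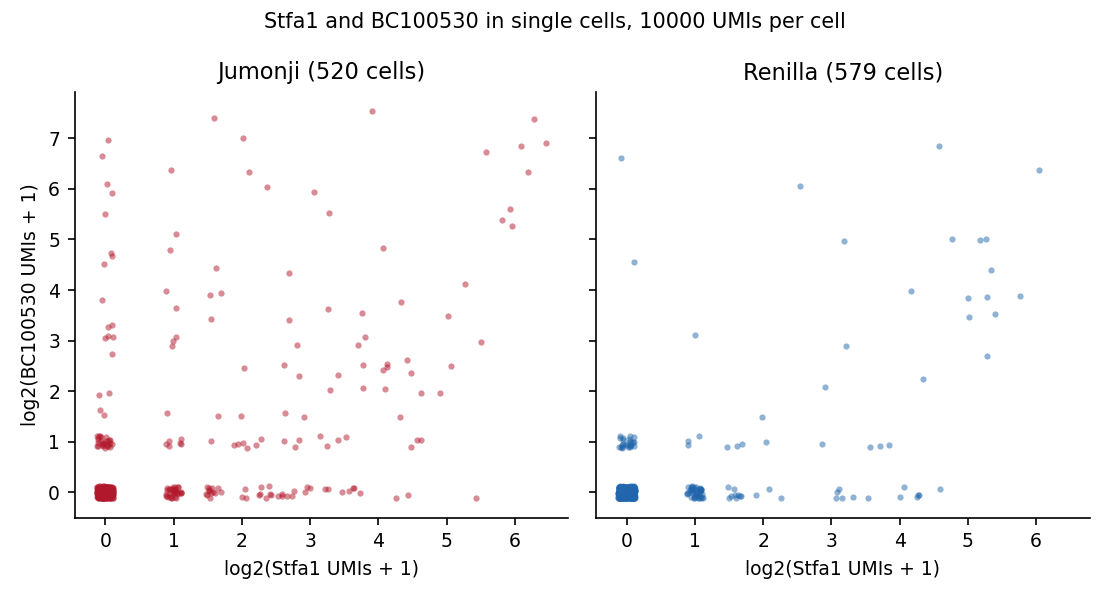
Stfa1 against BC100530 in single cells, each axis log2 of UMIs plus 1 with a small random offset so that points do not hide each other, all cells thinned to 10000 UMIs, with 520 Jumonji cells in the left panel and 579 Renilla cells in the right panel. Each point is a cell. Cells with many BC100530 UMIs and 0 Stfa1 UMIs stand along the left edge of the Jumonji panel, and few such cells are in the Renilla panel.

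The mix of copies differed between the libraries and between cells of a library, and the difference between libraries was not alike in all cell states described below. Among the UMIs of Stfa1, BC100530 and Gm5483, Stfa1 made up 23.3% in the Jumonji library (22.6 to 24.04%), against 43.8% in the Renilla library (42.3 to 45.3%). BC100530 made up 37.5% and 29.8%, and Gm5483 made up 39.1% and 26.3%. Without the richest cell of each library the Stfa1 share was 23.3% and 47.8%, and as a median over cells with at least 20 UMIs of the 3 copies it was 22.4% and 61.6%. In cells with 3 to 19 such UMIs the Stfa1 share was 46.9% in Jumonji cells and 78.7% in Renilla cells. By the clusters described below, it was 23.3% in Jumonji and 46.9% in Renilla cells of cluster 1. It was 27.8% and 62.3% in cluster 2, 45.5% and 61.9% in cluster 3, and 31.96% and 46.4% in cluster 5. In cluster 4 it was nearly equal, at 19.2% and 18.98%, and in cluster 6 it was 22.7% and 28.4%. Clusters 4 and 6 held 164 and 122 Jumonji cells, against 23 and 20 Renilla cells.

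Single cells often leaned on 1 copy. In cells with at least 20 UMIs of the 3 copies, the Stfa1 share ran from 0 to 97.5% over 114 Jumonji cells and from 0 to 94.4% over 31 Renilla cells. Its SD over cells was 29.1 percentage points in Jumonji and 30.1 in Renilla cells, where counting alone would give 5.58 and 5.96. Stfa1 was the leading copy in 37 of 114 Jumonji cells and 22 of 31 Renilla cells, BC100530 in 27 and 6, and Gm5483 in 50 and 3. In 19 of the Jumonji cells and 1 of the Renilla cells no Stfa1 UMI was seen.

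The leading copy went with other genes of the cell. S100a8 was at 1004 CPM in Stfa1-led Jumonji cells, at 4197 CPM in BC100530-led cells and at 3361 CPM in Gm5483-led cells. In the Renilla library it was at 401, 4405 and 1912 CPM, from 22, 6 and 3 cells. Ngp followed the same order, at 65.4, 298 and 271 CPM in Jumonji cells and at 22.3, 2151 and 817 CPM in Renilla cells, where a single cell held 160 of 303 Ngp UMIs. Ctsg, a serine protease of primary granules, was at 112, 70.6 and 13.8 CPM in Jumonji cells, while in Renilla cells it did not order the copies, at 184, 198 and 200 CPM. Other genes of the primary granule list gave another order in Jumonji cells, highest in BC100530-led cells. These were Elane (1395, 1665 and 749 CPM), Ms4a3 (400, 505 and 162 CPM) and Mpo (37.4, 132 and 7.52 CPM). In Renilla cells Elane was at 2762, 2594 and 3222 CPM, Ms4a3 at 1100, 840 and 755 CPM and Mpo at 186, 377 and 385 CPM. Cstb was at 192, 175 and 236 CPM in Jumonji cells. Median depth also differed, at 26565, 21337 and 14217 UMIs in these Jumonji cells. So did the median UMIs of the 3 copies per cell, at 55, 112 and 59.5 in Jumonji cells and at 73.5, 211.5 and 84 in Renilla cells. The parts of depth and of the amount of stefin A in these values were not tested.

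Genes most like the summed stefin A counts over the 575 Jumonji cells were ranked among 8956 genes. Gm5483 came first (r = 0.88), followed by S100a8 (0.83), S100a9 (0.78), Tmsb4x, which encodes the actin-binding peptide thymosin beta 4 (0.65), and Ngp (0.60). Prdx5, Clec4a2, Lcn2, Anxa3, Pglyrp1, Dstn and Ppp1r42 completed the 12 highest, with r from 0.54 to 0.50. Lcn2 (lipocalin 2) and Pglyrp1 encode antibacterial proteins of neutrophil granules. In the 608 Renilla cells, which were not used for this ranking, r was 0.87 for Gm5483, 0.71 for S100a8, 0.61 for S100a9, 0.54 for Tmsb4x and 0.51 for Ngp, and 7 of the 12 genes were again among the 12 highest. The lowest r in Jumonji cells were those of Ifitm1 (-0.43), Srgn (-0.43), Ly6e (-0.39) and the progenitor marker Cd34 (-0.39). Cstb had r of -0.05 in Jumonji and 0.12 in Renilla cells. The points share library and depth, and the median r over all genes was -0.02 in both.

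By member at equal depth, BC100530 tracked S100a8 with r = 0.85 in Jumonji and 0.76 in Renilla cells, and Stfa1 did so with r = 0.53 and 0.51. Stfa2l1 had 0.46 and 0.48.

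Stefin-high cells were compared with cells of the same library that had 0 stefin A UMIs at equal depth. S100a8 was at 3372 CPM in the 75 stefin-high Jumonji cells, against 17.5 CPM in the 315 Jumonji cells without. In the 29 stefin-high Renilla cells it was at 1631 CPM, against 7.28 CPM in 453 cells without. S100a8 was detected in 85.3% of stefin-high Jumonji cells, against 22.0% of the rest, and in 62.1% of stefin-high Renilla cells, against 6.91% of the rest. Conversely, 39.5% of the Jumonji cells and 32.1% of the Renilla cells with S100a8 were stefin-high. The overlap with calprotectin cells was thus large and incomplete in both libraries.

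The summed neutrophil and secondary granule list, 24 genes with a row in the matrices, was highest where the stefin A count was highest. Its summed level over Jumonji cells with 0, 1 to 2, 3 to 9 and 10 or more stefin A UMIs was 268, 454, 1473 and 7033 CPM. Over the same steps in Renilla cells it was 109, 123, 212 and 4069 CPM, the third step with 16 cells only. Most of the sum in stefin-high cells was S100a8 and S100a9, at 3372 and 2508 CPM in Jumonji and at 1631 and 1121 CPM in Renilla cells. Most other genes of the list with at least 50 UMIs were also higher in stefin-high Jumonji cells than in those without. Mmp8 (10.7 against 26.3 CPM) and Padi4 (6.67 CPM in both) were not. Lyz2 was at 379 against 143 CPM in Jumonji and 69.0 against 66.0 CPM in Renilla cells. The summed monocyte and macrophage list was at 1242, 1195, 1608 and 1876 CPM over these steps in Jumonji cells and at 542, 710, 1644 and 1972 CPM in Renilla cells. That difference was carried by Ly6c2, a surface antigen that neutrophil precursors also carry, at 1007 CPM in stefin-high Jumonji cells, against 222 CPM in those without, and at 1748 against 329 CPM in the Renilla library. The summed stem and progenitor list was lower where stefin A was higher, at 2483, 2035, 1431 and 1129 CPM in Jumonji cells and 1207, 1101, 931 and 617 CPM in Renilla cells. That sum was carried by Ifitm1 and Cd34. Ifitm1 was at 283 CPM in stefin-high Jumonji cells, against 1270 CPM in those without, and at 44.8 against 256 CPM in the Renilla library. Cd34 was at 360 against 710 CPM in Jumonji and 131 against 351 CPM in Renilla cells. Myb, Hoxa9, Kit, Meis1, Sox4, Gata2 and Cd27 had log2 ratios between -0.57 and 0.41 in Jumonji cells, each with a counting interval that includes 0. In Renilla cells the intervals of Myb (-0.71, -1.24 to -0.22) and Gata2 (-1.90, -4.97 to -0.02) lay below 0. Summed S phase genes were at 3093, 3142, 2918 and 3003 CPM in Jumonji cells and 3455, 3191, 3206 and 2897 CPM in Renilla cells. Summed G2/M genes were at 6356, 6462, 6827 and 8020 CPM in Jumonji cells and 6379, 6848, 7200 and 6783 CPM in Renilla cells. The part of these other lists in the neutrophil values was not tested.

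Primary granule genes did not move as a block. Elane (neutrophil elastase) was at 1225 CPM in stefin-high Jumonji cells, against 523 CPM in cells without, and at 2900 and 1529 CPM in the Renilla library. Ms4a3, a membrane protein of granulocyte-monocyte progenitors, was at 331 and 73.3 CPM in Jumonji and at 1024 and 494 CPM in Renilla cells. Mpo (myeloperoxidase) was at 53.3 CPM in stefin-high Jumonji cells, against 67.0 CPM in cells without, and at 221 and 622 CPM in the Renilla library. Prtn3 was at 1012 and 650 CPM in Jumonji and at 2059 and 1620 CPM in Renilla cells. Ctsc was at 85.3 and 142 CPM in Jumonji and at 17.2 and 56.3 CPM in Renilla cells. Cst7 was at 144 and 237 CPM in Jumonji and at 34.5 and 79.2 CPM in Renilla cells. Ctsg was at 62.7 and 75.9 CPM in Jumonji and at 155 and 594 CPM in Renilla cells. So Elane, Ms4a3 and Prtn3 were higher with stefin A in both libraries, and Ctsc and Cst7 were lower with it in both. Mpo and Ctsg were lower with it in the Renilla library. Of the cysteine cathepsins, Ctsc was lower in stefin-high cells, as given above. Ctsh was higher in them (241 against 127 CPM in Jumonji, 217 against 41.9 CPM in Renilla). Ctss was lower in stefin-high Jumonji cells, at 14.7 against 108 CPM, and was detected in 4 of the 75, against 26.3% of the rest. Stefin-high Renilla cells had 0 Ctss UMIs, against 5.30 CPM in those without, which gives no direction at this depth.

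**Figure D4:**
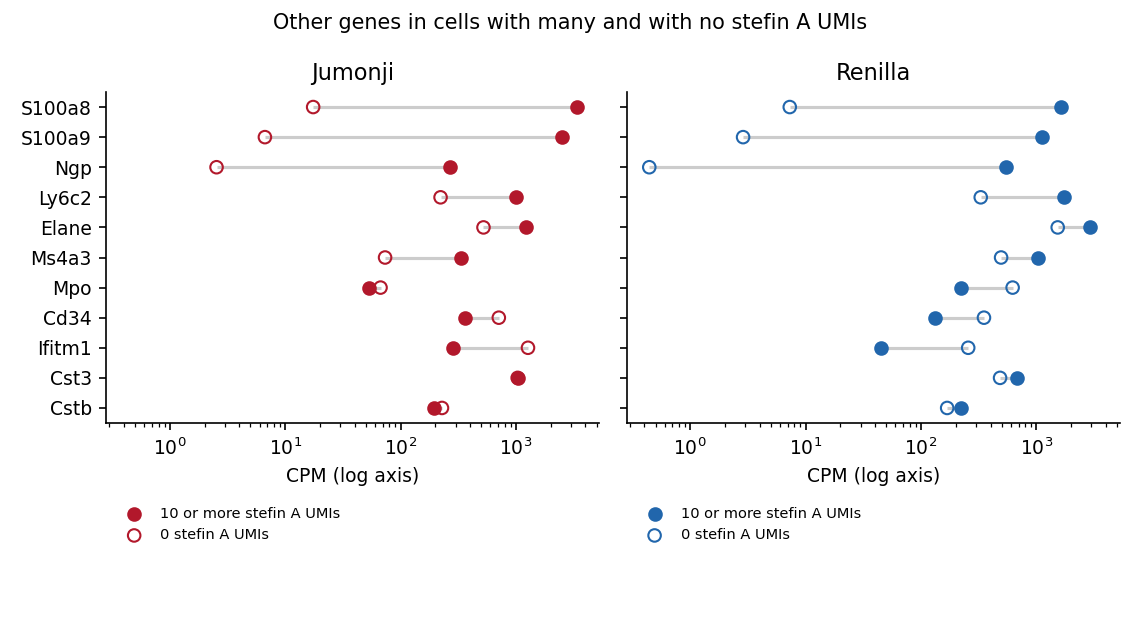
CPM (log axis) of 11 other genes in cells with 10 or more stefin A UMIs (filled) and with 0 (open) at 10000 UMIs per cell, Jumonji library left and Renilla library right, on a shared axis. Points are sums over cells with no replicate error. S100a8, S100a9, Ngp, Ly6c2, Elane and Ms4a3 lie to the right in stefin-high cells of both libraries, Cd34, Ifitm1 and Mpo lie to the left, and Cst3 and Cstb differ least.

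Stefin-high cells were spread over several states. Clustering both libraries together gave 6 clusters, called by number here. It left out 5484 genes: the stefin genes, a list of S phase and G2/M genes, mitochondrial and ribosomal genes and those at least 1.5-fold apart between libraries. Other cell cycle genes, such as Ccnb1 and Ccne1, were used. Clusters 1 (leading genes Ube2c and Cenpf) and 5 (Cdc20 and Ccnb1) were led by mitosis genes, clusters 2 (Ung and Dtl) and 3 (Ung and Ccne1 among its leading genes) by S phase genes, cluster 4 by Wfdc17, Ctss and Lsp1, and cluster 6 by Tcf19, S100a9, Ccne2 and S100a8. In the Jumonji library cluster 6 held 29.5% of the members' UMIs and cluster 1 held 28.98%. In the Renilla library cluster 1 held most, 38.1%. Without the cells marked by Scrublet, another set of 6 clusters placed 51.5% of Jumonji UMIs in 1 cluster, so these shares depend on where the borders fall.

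In cluster 1 stefin-high cells were 21 of 114 in the Jumonji library, against 12 of 123 in the Renilla library, and in cluster 2 they were 11 of 93 and 7 of 131. Cluster 5 had 5 of 49 Jumonji cells, against 1 of 127 Renilla cells. In cluster 3 they were 0 of 21 and 2 of 158. Clusters 4 and 6 held few Renilla cells: stefin-high cells were 16 of 123 Jumonji and 2 of 21 Renilla cells in cluster 4, and 22 of 120 and 5 of 19 in cluster 6.

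The summed level within clusters rested on few cells. It was 739 CPM in Jumonji cells, against 352 CPM in Renilla cells, of cluster 1 (log2 ratio 1.07), 763 against 227 CPM in cluster 2 (1.75) and 335 against 50.02 CPM in cluster 5 (2.74). The ratio was below 0 in the others: 631 against 797 CPM in cluster 4 (-0.34), 866 against 964 CPM in cluster 6 (-0.15) and 46.8 against 59.9 CPM in cluster 3 (-0.36, interval -1.02 to 0.24). A single cell held 75.2% of the Renilla stefin A UMIs of cluster 4, 63.9% of those of cluster 5 and 56.0% of the Jumonji UMIs of cluster 3. Without the richest cell of each library in each cluster, the log2 ratios of clusters 1, 2 and 5 were 1.19, 1.54 and 3.40, while those of clusters 4 and 6 turned to 1.40 and 0.18 and that of cluster 3 was -0.83 (-1.86 to 0.06). The stefin A level was thus higher in Jumonji cells of clusters 1, 2 and 5 with and without these cells, and in clusters 4 and 6 the direction rested on single Renilla cells. Cluster 4 and cluster 6 held 164 and 122 Jumonji cells, against 23 and 20 Renilla cells.

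**Figure D5:**
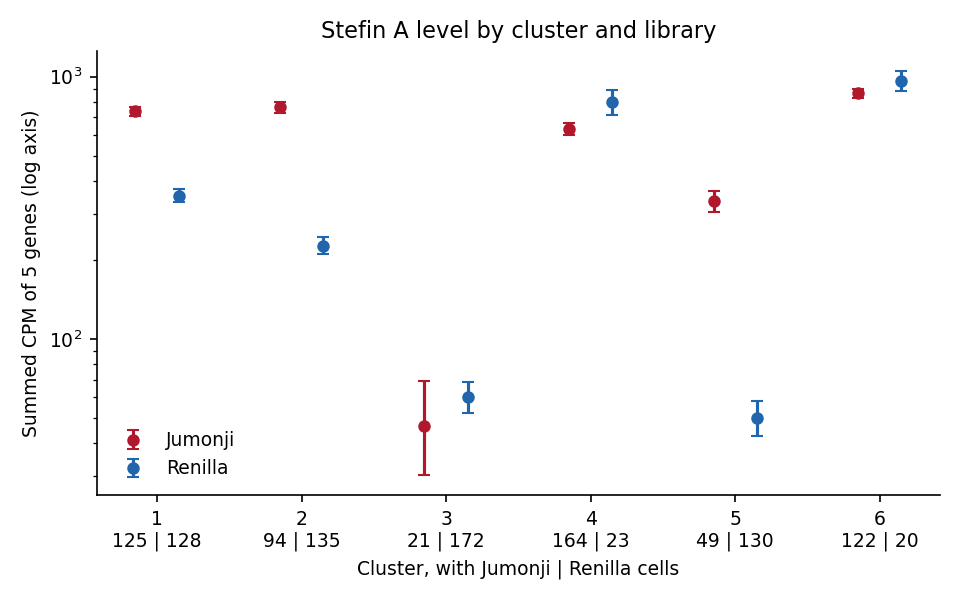
Summed CPM of the 5 members (log axis) in each of 6 clusters, Jumonji (red, left) and Renilla (blue, right), with 95% Poisson intervals that cover counting error only. Numbers under the axis are Jumonji and Renilla cells. The libraries lie apart in clusters 1, 2 and 5 (739 against 352, 763 against 227 and 335 against 50.02 CPM) and closer together in clusters 3, 4 and 6, where the richest single cells set the direction in 4 and 6.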

How the data were processed

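The deposited values were raw UMI counts per gene and cell barcode, 1 matrix per library, which the authors made with Cell Ranger 1.3.1 on mm10, per the submitters' processing notes; the libraries used the Chromium 3′ v2 kit, per the labels' protocols. The sources used here give neither the annotation nor the cell-calling rule. Kept were barcodes with 500 or more genes and no more than 10% mitochondrial UMIs: 575 of 652 (Jumonji, 12809661 UMIs) and 608 of 651 (Renilla, 14418743 UMIs). CPM are UMIs per 1000000 UMIs of kept cells. Ratios carry exact conditional binomial intervals, levels Poisson intervals and shares Clopper-Pearson intervals, all at 95% and for counting error only; the floor is 3 counts. With 1 library a group no test was run, since cells are not replicates. Thinning drew 10000 UMIs per cell without replacement (seed 1). Clusters came from scanpy 1.11.5 and leidenalg 0.10.2 (2000 variable genes, 30 components, 15 neighbours, resolution 0.6). Scrublet, through scanpy, marked 5 Jumonji and 9 Renilla cells, which were kept. Correlations used log1p counts per 10000. The ratio and correlation code was tested on simulated data, where 200 of 200 genes with a 3-fold Jumonji over Renilla change passed the 2-fold rule. The simulated library totals had counting error only, so this checks the code and not ratios of genes as uneven over cells as stefin A.

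Coordinates and transcripts came from GENCODE M21 (27645 of 27998 identifiers matched) and promoters from RefSeq (GRCm38.p6). Genes planned for naming were the members, the other stefin genes of the locus and the 12 genes with the highest r. The plan also held the 2 highest and 2 lowest genes of each list by library ratio, with at least 50 UMIs. Of these only part are described, and Ccr2, Apoe and Lilrb4a are among those left out. Elane, Ly6c2, Prtn3, Ctsb, Hoxa9, Kit, Meis1 and Sox4 are among the genes named outside this plan. S100a9, Ngp, Camp, Lcn2, Mpo, Ms4a3, Ctsg, Ctsh, the lowest r and the single cell with most Stfa2 were added after their values were seen. Members and lists were chosen with earlier results of these data known. Whether counting used strand is not given, so an antisense gene's reads cannot be told apart from those of its partner.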

Additional observations from a re-analysis of the deposited data

How the results depend on the processing

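The summed log2 ratio of 1.66 kept its sign in all 8 alternatives, moving outside its counting interval to 1.56 at equal depth and to 1.74 without cluster 6. Equal weight per cell, TMM scaling (edgeR 4.0.16), all barcodes, the stricter filter (1000 genes, 5% mitochondrial UMIs), Scrublet cells left out and the richest cells left out stayed inside it. The share of cells with a UMI was 45.1% in Jumonji over all barcodes, 39.4% in Jumonji and 21.8% in Renilla cells at equal depth, and 34.4% and 13.3% at a minimum of 2 UMIs. The share of stefin-high cells was 20.2% in Jumonji cells at a minimum of 5 UMIs, and 9.62% in Jumonji and 3.28% in Renilla cells at 20, both thresholds chosen after seeing the data, as were the checks of single cells, random draws and copy mix. The mean within stefin-high cells, Jumonji over Renilla, was 0.947 with another draw, against 1.06. The Stfa1 share of the 3 copies was 22.4% in Jumonji and 61.6% in Renilla as a median over cells, and 47.8% in Renilla without the richest cell. Observed over expected co-detection of Stfa1 and BC100530 was 2.11 in Jumonji and 3.13 in Renilla cells, 1.69 and 1.88 unthinned, and 3.05 and 9.80 at 2 UMIs. The largest cluster share was 32.6% at resolution 1.0 and 51.5% without Scrublet cells. Genes 2-fold higher and lower numbered 1881 and 1205 at a minimum of 1 UMI, and 83 lower at 200 UMIs. The cause was not tested in any of these. No log2 ratio between the libraries changed sign under these, but within clusters 4 and 6 the ratio changed sign without the richest cells (1.40 and 0.18, against -0.34 and -0.15), an alternative added after seeing the data.

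No paired analysis was possible because each group has 1 library, and leaving out a replicate was not possible for the same reason. Depth limits Stfa2 and Stfa3, whose ratios rest on 1 to 12 UMIs outside a single cell.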

Other observations

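Barcodes above 10% mitochondrial UMIs entered none of the comparisons. In the Jumonji library 77 such barcodes held 6 stefin A UMIs (14.2 CPM, 5.22 to 31.0), against 681 CPM in the kept cells, and 3 S100a8 UMIs (7.11 CPM), against 498 CPM. In the Renilla library 43 such barcodes held 65 stefin A UMIs (257 CPM, 199 to 328), against 216 CPM in the kept cells, of which 59 were in 1 barcode. Cstb was lower in these barcodes in both libraries, at 121 CPM against 204 CPM in Jumonji and 67.3 CPM against 161 CPM in Renilla. Excluded Jumonji barcodes thus held little stefin A, and the Renilla value rests on a single barcode.

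Camp rested on a single cell in the Renilla library. It was at 5.07 CPM in the Jumonji library, against 17.2 CPM in the Renilla library, where 1 cell held 163 of 248 Camp UMIs. Without the cell richest in Camp of each library, a setting chosen after seeing the data, it was at 4.06 CPM in the Jumonji library, against 5.90 CPM in the Renilla library. Within stefin-high cells at equal depth that cell held 85 of 117 Camp UMIs of the Renilla library, and without the richest cells Camp was at 25.7 CPM in the Jumonji library, against 114 CPM in the Renilla library.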
